A study of Mus musculus with 6 samples.

Results

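The transcripts described here are those of the 10 genes that encode the TGF-β ligands (*Tgfb1*, *Tgfb2*, *Tgfb3*), their receptors (*Tgfbr1*, *Tgfbr2*, *Tgfbr3*) and the latent TGF-β binding proteins (*Ltbp1*, *Ltbp2*, *Ltbp3*, *Ltbp4*). They were taken by symbol from a table of 20326 genes, all 10 had an entry, and 9 of them had enough tags to be tested among 9334 tested genes. The cells came from the colons of male C57BL/6 mice that carried the *Il11-Egfp* reporter, were 9 to 15 weeks old, and had been given 1.5% dextran sulfate sodium (DSS), which injures the colonic epithelium, in the drinking water for 5 days. On day 7, cells that lacked CD45, CD31, EpCAM and Ter119 were sorted into an EGFP+ (IL-11+) and an EGFP- (IL-11-) fraction. RNA of each was sequenced by 5′Tag-seq, which counts tags at the 5′ ends of transcripts (3 libraries per fraction). The comparison between these fractions addressed how fibroblasts that produce IL-11 in colitis differ from their neighbours. The reporter is a bacterial artificial chromosome with *Egfp* placed in the *Il11* gene, kept as a single transgenic line chosen because *Egfp* followed *Il11*, and the sorted EGFP+ cells were not entirely pure. All libraries came from DSS-treated mice, so that an uninjured colon has no value here. Each library held 1022850 to 1169817 tags, and 3 tags, the number that a count of 0 still allows, corresponded to 2.56 to 2.93 CPM (tags per 1000000 tags of the library). This floor covers counting error only, whereas the 95% intervals given for fold changes also hold the spread between libraries.

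TGF-β is secreted in a latent form, in which the mature dimer stays wrapped in its own propeptide, and a latent TGF-β binding protein tethers this complex to the extracellular matrix. Integrins, proteases and thrombospondin can free the ligand, which then assembles the type II and type I receptor kinases and drives SMAD-dependent transcription, while the type III receptor presents ligand to them. In the intestine TGF-β restrains inflammation and is also known for driving fibroblasts towards matrix production and a contractile state.

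*Il11* itself, the gene whose promoter drives the reporter, was counted with 28, 51 and 89 tags in the EGFP- libraries of replicates 1, 2 and 3 and with 1357, 732 and 2658 tags in the EGFP+ libraries. The fractions did not overlap, and the labels matched this gene in all 6 libraries. Fibroblast markers were present in both fractions. The 8 marker genes together reached 18986, 17663 and 19110 normalised CPM in the EGFP- libraries and 33091, 24774 and 21606 in the EGFP+ libraries, with *Dcn* the most abundant, and *Pdgfra* had 661 to 768 tags in each library. *Pdpn* (podoplanin, log2 fold change 1.06) was called higher in EGFP+ cells, though not when library totals set the scale or when replicate 1 of either fraction was left out (0.96 to 1.15 over the alternatives). *Thy1* (0.88) and *Dcn* (0.67) were higher by the adjusted p alone. Without EGFP- replicate 3 or without EGFP+ replicate 2, *Thy1* was called (0.73 to 1.21 over the alternatives). *Lum* (−0.64) was lower by the adjusted p alone, and *Col1a2* (0.42), *Col1a1* (0.35), *Pdgfra* (0.22) and *Vim* (−0.27) did not pass. Markers of the endothelial, blood and epithelial cells that the gate was meant to remove were near 0, except for globin transcripts of red cells. In no library did the summed tags of 5 endothelial genes pass 9, those of 7 haematopoietic genes 38, or those of 5 epithelial genes 14, and *Pecam1* and *Epcam* had at most 1 tag. The 3 erythroid genes, led by *Hbb-bs*, summed to 60, 0 and 231 tags in the EGFP- libraries and 9, 0 and 12 tags in the EGFP+ libraries, and their part in other values was not tested.

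The EGFP- libraries also held transcripts of other mesenchymal and neural cells that the gate did not remove. The 9 smooth muscle markers summed to 2735, 3372 and 4233 normalised CPM in the EGFP- libraries and to 107, 178 and 360 in the EGFP+ libraries, and *Myh11*, the smooth muscle myosin heavy chain, was the most abundant. All 9 were called lower in EGFP+ cells (*Myh11*, *Des*, *Actg2*, *Cnn1*, *Acta2*, *Tagln*, *Synpo2*, *Lmod1* and *Myl9*). The 8 pericyte markers, led by *Rgs5*, summed to 2831, 2425 and 2289 against 1088, 909 and 815 normalised CPM. Of these, *Rgs5*, *Notch3*, *Cspg4*, *Mcam* and *Rgs4* were called lower, *Pdgfrb* was not called (log2 fold change −0.38), and the potassium channel genes *Kcnj8* and *Abcc9* passed the adjusted p alone in the other direction (0.71 and 0.66). The markers *Kit* and *Ano1* of interstitial cells of Cajal summed to 215, 127 and 265 tags against 1, 0 and 22 tags. *Kit* had 0 tags in EGFP+ replicates 1 and 2, and the glial genes *Sox10* and *S100b* had 0 in every EGFP+ library. In RNA from a sorted pool, fewer cells of a type and less RNA per cell cannot be told apart. Within the EGFP+ fraction, replicate 3 had the highest sums of the smooth muscle and Cajal cell markers and the lowest sum of the pericyte markers.

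**Figure D1:**
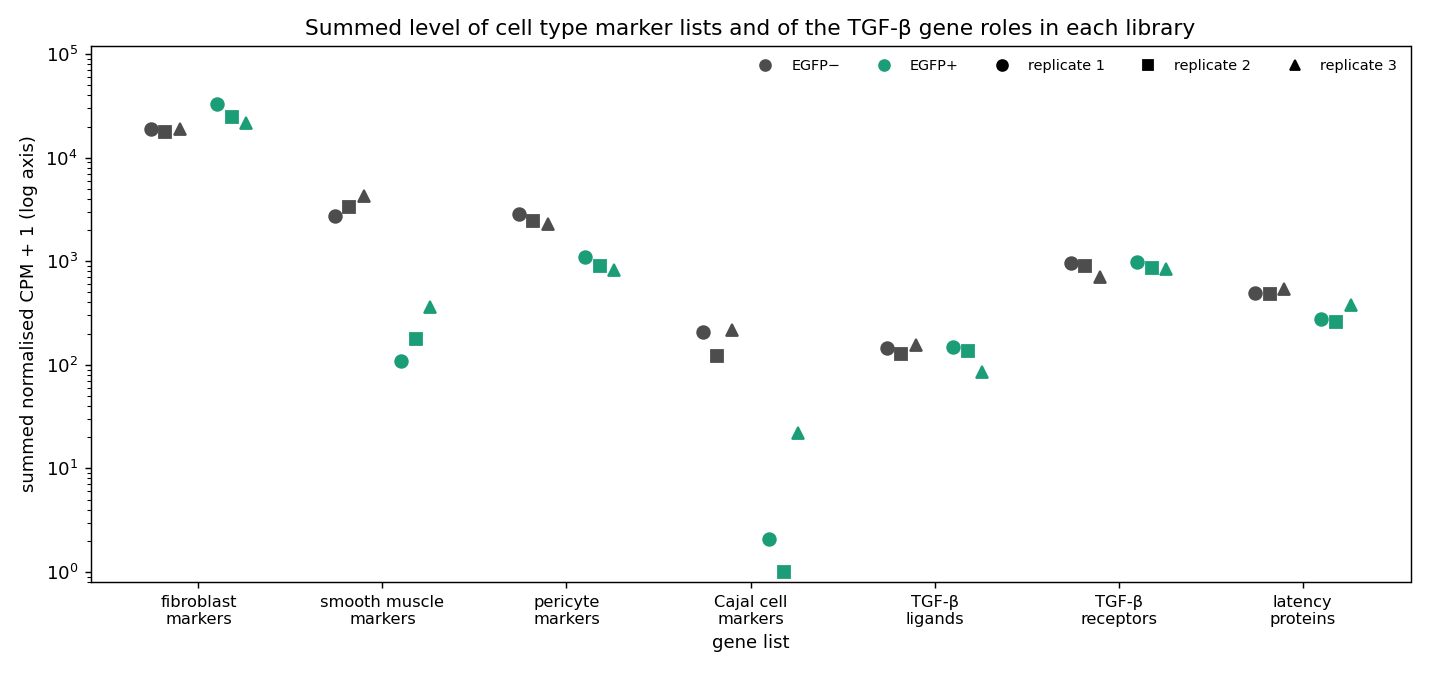
Summed normalised CPM plus 1 on a log axis for 4 lists of cell type markers and for the 3 ligand, 3 receptor and 4 latency protein genes, with 1 point per library, grey for EGFP- and green for EGFP+, and the symbol giving the replicate number. Smooth muscle marker sums of 107, 178 and 360 in the EGFP+ libraries lie below all EGFP- sums, whereas the fibroblast marker sums of the EGFP+ libraries lie above them.

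A gene was called when edgeR's quasi-likelihood test gave an adjusted p (Benjamini-Hochberg, over all 9334 genes) under 0.05 and the fold change was over 2. By this rule, 1 of the 9 tested genes was higher in EGFP+ cells (*Tgfb1*) and 2 were lower (*Tgfb3* and *Ltbp1*), where 3.44% of all tested genes were called higher and 6.37% lower. With the fold threshold dropped, 2 were higher (*Tgfb1* and *Tgfbr1*) and 3 lower (*Tgfb3*, *Ltbp1* and *Ltbp4*), against 6.84% and 8.7% of all tested genes. The normalised CPM of the fractions did not overlap for these 5 genes, as was so for 31.2% of all tested genes. The median log2 fold change of the 9 genes was 0.03, beside −0.01 over all tested genes. The genes that passed the adjusted p thus went both ways, and each role held genes that passed it and genes that did not.

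**Figure D2:**
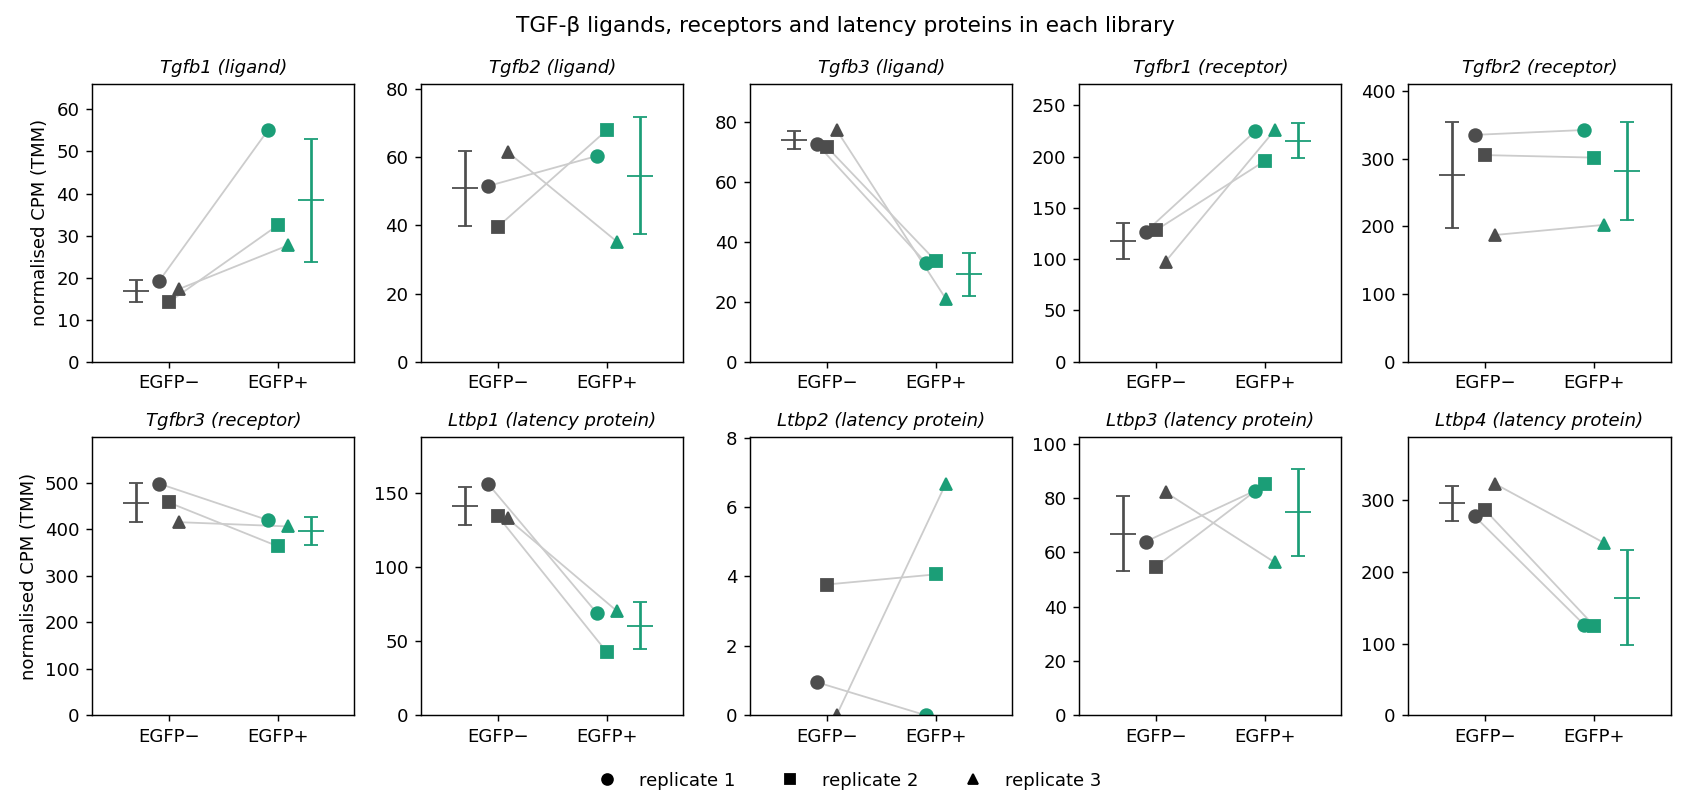
Normalised CPM of each of the 10 genes in the 6 libraries, grey for EGFP- and green for EGFP+, with lines joining libraries of the same replicate number and bars beside the points giving mean ± SD of 3 libraries for the tested genes. The fractions are apart for *Tgfb1*, *Tgfb3*, *Tgfbr1*, *Ltbp1* and *Ltbp4* and overlap for the other 5 genes.

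Among the ligands, *Tgfb1* was higher and *Tgfb3* was lower in IL-11+ cells, and *Tgfb2* did not pass the test. *Tgfb1*, the isoform best known from inflamed and fibrotic tissue, was counted with 20, 15 and 21 tags in the EGFP- libraries of replicates 1, 2 and 3 and with 52, 32 and 29 tags in the EGFP+ libraries. Every EGFP+ library was above every EGFP- library, and EGFP+ replicate 1 stood apart at the top. The mean rose from 16.8 ± 2.51 to 38.4 ± 14.7 normalised CPM (SD, n = 3 libraries each). The fold change fitted by edgeR was 2.26 (log2 fold change 1.18, SE 0.31). The adjusted p of edgeR's quasi-likelihood test was 0.0130, and *Tgfb1* was 2.89, 2.30 and 1.60 times as high in EGFP+ cells within the same-numbered pairs. The call depended on single libraries. Without EGFP+ replicate 1 the log2 fold change was 0.84 and edgeR's adjusted p was 0.102, and without EGFP- replicate 2 they were 1.08 and 0.0642, where the adjusted p over all alternatives ranged from 0.00121 to 0.102.

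*Tgfb3*, an isoform known from embryonic palate fusion and from mesenchymal cells, had 76, 76 and 94 tags in the EGFP- libraries and 31, 33 and 22 tags in the EGFP+ libraries. The EGFP- libraries lay close together, and each EGFP+ library was far below them. The level fell from 73.8 ± 2.98 to 29.1 ± 7.05 normalised CPM. The log2 fold change was −1.35 (SE 0.225), and edgeR's test returned an adjusted p of 0.000318. Within the same-numbered pairs *Tgfb3* was 2.21, 2.14 and 3.68 times as high in EGFP- cells. The call held in all 16 alternatives, in which the log2 fold change ranged from −1.46 to −1.15.

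*Tgfb2*, an isoform with roles in heart and eye development, had 54, 42 and 75 tags in the EGFP- libraries and 57, 67 and 37 tags in the EGFP+ libraries. The fractions overlapped, and the pairs went different ways, with EGFP+ cells at 1.17 and 1.72 times the EGFP- level in replicates 1 and 2 and at 0.573 times in replicate 3. The log2 fold change was 0.09 with a 95% interval from −0.44 to 0.62, and its sign turned when library totals alone set the scale or EGFP- or EGFP+ replicate 2 was left out. This interval runs from 1.35-fold lower to 1.53-fold higher in EGFP+ cells.

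The balance of *Tgfb1* and *Tgfb3* tags does not depend on how the libraries are scaled. For each *Tgfb3* tag there were 0.263, 0.197 and 0.223 *Tgfb1* tags in the EGFP- libraries, against 1.68, 0.970 and 1.32 in the EGFP+ libraries. Since *Tgfb1* was above and *Tgfb3* below in every EGFP+ library, these ratios could not overlap, and they restate both calls without adding to them. Summed over the ligands, the level was 142 ± 15.4 normalised CPM in EGFP- cells and 122 ± 33.8 in EGFP+ cells, and these sums overlapped.

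Among the receptors, *Tgfbr1* was higher in IL-11+ cells by the adjusted p but under the fold threshold, and *Tgfbr2* and *Tgfbr3* did not pass the test. *Tgfbr1* encodes the type I receptor kinase (ALK5) that phosphorylates SMAD2 and SMAD3. It had 133, 136 and 119 tags in the EGFP- libraries and 212, 193 and 237 tags in the EGFP+ libraries. The fractions were well apart, and the spread within each was small. The mean was 118 ± 17.2 normalised CPM in EGFP- cells and 216 ± 17.0 in EGFP+ cells. The fitted fold change was 1.84 (log2 fold change 0.88, SE 0.17, edgeR adjusted p = 0.00127). It stayed between 0.76 and 0.95 on the log2 scale in the 16 alternatives, all with an adjusted p of at most 0.00744.

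*Tgfbr2* encodes the type II kinase that binds ligand and activates the type I receptor. It had 351, 324 and 228 tags in the EGFP- libraries and 323, 297 and 212 tags in the EGFP+ libraries. In both fractions replicate 3 was the lowest, and within each same-numbered pair the fractions were nearly level, with EGFP+ cells at 1.02, 0.988 and 1.08 times the EGFP- normalised CPM. The log2 fold change was 0.03 (95% interval −0.43 to 0.50), with a sign that turned in 5 of the 16 alternatives, scaling by library totals among them. A block for the replicate number narrowed the interval to −0.25 to 0.33 around 0.04, with no call in either fit.

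*Tgfbr3* encodes betaglycan, the coreceptor that presents ligand, TGF-β2 above all, to the kinases. It had 522, 486 and 506 tags in the EGFP- libraries and 396, 358 and 426 tags in the EGFP+ libraries. In normalised CPM the fractions overlapped, since EGFP+ replicate 1 (420) was above EGFP- replicate 3 (415), while within the same-numbered pairs EGFP+ cells were at 0.842, 0.794 and 0.978 times the EGFP- level. The log2 fold change was −0.21 (95% interval −0.54 to 0.13), and a change of more than 1.46-fold downwards lies outside the interval. With a block for the replicate number it was −0.20 (−0.49 to 0.08), with no call in either fit. In the GENCODE vM21 annotation, 18% of the 50-base stretches in the first 300 bases of *Tgfbr3* transcripts also occur in *Gm43422*. This is an annotated transcript of uncertain status inside the gene on the same strand. Whether the RefSeq transcripts used for mapping include *Gm43422*, and so whether *Tgfbr3* tags could have been divided, was not checked. The other 9 genes shared no such stretch with another gene of the GENCODE annotation.

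The ratios of the other receptor transcripts to *Tgfbr1* differed between the fractions. There were 3.92, 3.57 and 4.25 *Tgfbr3* tags per *Tgfbr1* tag in the EGFP- libraries and 1.87, 1.85 and 1.80 in the EGFP+ libraries. The 3 EGFP+ ratios were almost equal, and none came near those of EGFP- cells. The *Tgfbr2* tags per *Tgfbr1* tag were 2.64, 2.38 and 1.92 against 1.52, 1.54 and 0.895, again without overlap. Both ratios have *Tgfbr1* as the denominator, so they partly restate its difference, and the ratios themselves were not tested. The *Tgfbr3* tags per *Tgfbr2* tag were 1.49, 1.5 and 2.22 against 1.23, 1.21 and 2.01, and these overlapped. The receptor sum of 851 ± 135 normalised CPM in EGFP- cells and 894 ± 81.4 in EGFP+ cells overlapped.

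**Figure D3:**
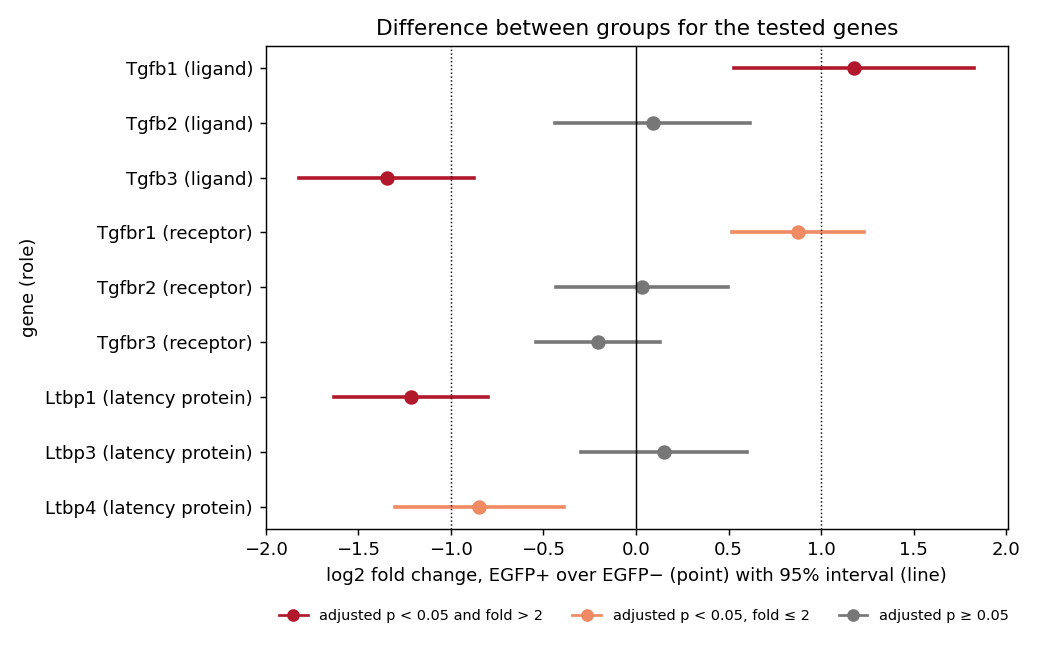
Log2 fold change of EGFP+ over EGFP- cells (points) with its 95% interval (lines) for the 9 tested genes, from edgeR's quasi-likelihood fit to 3 libraries per fraction, with dotted lines at a fold change of 2 in each direction. The intervals of *Tgfb1*, *Tgfb3*, *Tgfbr1*, *Ltbp1* and *Ltbp4* exclude 0, and those of *Tgfb2*, *Tgfbr2*, *Tgfbr3* and *Ltbp3* include it, with *Tgfb2* and *Tgfbr2* changing sign when scaled by library totals.

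Among the latency proteins, *Ltbp1* was called lower in IL-11+ cells, *Ltbp4* was lower by the adjusted p alone, *Ltbp3* did not pass, and *Ltbp2* was too scarce to test. *Ltbp1*, which anchors latent TGF-β to fibrillin and fibronectin in the matrix, had 164, 143 and 162 tags in the EGFP- libraries and 65, 42 and 74 tags in the EGFP+ libraries. The highest EGFP+ library was well under the lowest EGFP- library. The level fell from 141 ± 13.1 to 60.7 ± 15.7 normalised CPM (log2 fold change −1.22, SE 0.199, edgeR adjusted p = 0.000250). In same-numbered pairs EGFP- cells had 2.27, 3.16 and 1.88 times the EGFP+ level. The call held in all 16 alternatives, with log2 fold changes from −1.34 to −1.01.

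*Ltbp4*, which is known for its part in elastic fibre assembly and binds TGF-β1 only weakly, had 290, 304 and 393 tags in the EGFP- libraries and 119, 123 and 252 tags in the EGFP+ libraries. EGFP+ replicate 3 stood apart from the other EGFP+ libraries, though still below each EGFP- library in normalised CPM (240 against 277 and more). The mean was 295 ± 24.2 normalised CPM in EGFP- cells and 164 ± 66.3 in EGFP+ cells. The log2 fold change was −0.85 (SE 0.217), and edgeR's test returned an adjusted p of 0.0110. The value moved with single libraries. Without EGFP+ replicate 3 the log2 fold change was −1.23, which passed both thresholds. It was −0.69 without EGFP+ replicate 1 and −0.68 without EGFP+ replicate 2, with edgeR's adjusted p at 0.0638 and 0.0852, at the upper end of a range from 1.47e-05 to 0.0852 over the alternatives. EGFP+ replicate 3 was also the EGFP+ library with the most smooth muscle marker transcripts (360 normalised CPM against 107 and 178) and Cajal cell marker tags (22 against 1 and 0). Its pericyte marker sum was the lowest of the EGFP+ libraries (815 against 1088 and 909 normalised CPM). Its *Il11* level was the highest (2535 against 1438 and 743 normalised CPM). The part of any of these in the *Ltbp4* value was not tested.

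*Ltbp3*, a partner of latent TGF-β known from bone and tooth development, had 67, 58 and 100 tags in the EGFP- libraries and 78, 84 and 59 tags in the EGFP+ libraries. The fractions overlapped, and as for *Tgfb2* the EGFP+ level was above the EGFP- level in pairs 1 and 2 (1.29 and 1.56 times) and below it in pair 3 (0.685 times). The log2 fold change was 0.15 with a 95% interval from −0.30 to 0.60, that is, from 1.23-fold lower to 1.51-fold higher. *Ltbp2*, whose product does not bind latent TGF-β and belongs to elastic fibres and microfibrils, had 1, 4 and 0 tags in the EGFP- libraries and 0, 4 and 7 tags in the EGFP+ libraries. These counts were near the floor of 3 tags in both fractions, and no fold change is given.

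Per *Ltbp3* tag there were 2.45, 2.47 and 1.62 *Ltbp1* tags in the EGFP- libraries against 0.833, 0.5 and 1.25 in the EGFP+ libraries, without overlap. For *Ltbp4* the same ratio was 4.33, 5.24 and 3.93 against 1.53, 1.46 and 4.27, and here EGFP+ replicate 3 fell among the EGFP- libraries. Summed over the 4 genes, latency protein transcripts reached 498, 480 and 538 normalised CPM in the EGFP- libraries and 278, 257 and 374 in the EGFP+ libraries. All EGFP+ sums were below all EGFP- sums, at a mean of 505 ± 29.7 against 303 ± 62.4. *Ltbp1* and *Ltbp4*, each already apart between the fractions, held a mean of 28.1% and 58.4% of these tags in the EGFP- libraries. The sums thus largely restate these 2 genes, the *Ltbp1* ratio partly restates *Ltbp1*, and neither sums nor ratios were tested.

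*Tgfb3*, *Ltbp1* and *Ltbp4* were thus lower in the fraction in which all 9 smooth muscle markers, 5 of 8 pericyte markers, and the Cajal cell genes were lower. The pericyte sum was 2.68 times as high in EGFP- as in EGFP+ cells, against 1.67 times for the latency proteins, and each of its 5 called markers differed by more than the sum, which also includes *Kcnj8*, *Abcc9* and *Pdgfrb*. The smooth muscle and Cajal cell sums differed by more than the pericyte sum too, with EGFP+ replicate 3 holding most of the EGFP+ total of both. The part of these cells in the lower values of the 3 genes was not tested. *Tgfb1* and *Tgfbr1* were higher in the fraction in which the summed fibroblast markers were 1.43 times as high, and the part of that difference in the values of both genes was not tested either. Most of the difference in that sum was *Dcn*, at a mean of 12085 normalised CPM in EGFP- and 19217 in EGFP+ cells, and the 8 markers did not all go one way, with *Pdpn*, *Thy1* and *Dcn* higher and *Lum* lower by the adjusted p, whether or not they passed the fold threshold.

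The genes of 6 further groups of the TGF-β pathway were read from the same fit. Over all tested genes, 3.44% were called higher and 6.37% lower, and 12.2% were higher and 14.5% lower at an unadjusted p under 0.05. Of the activators of latent TGF-β, 10 were tested and 2 were called higher: *Itgav* (log2 fold change 1.23), the integrin αv chain that binds the propeptide, and *Mmp2* (1.36), a gelatinase. *Mmp14*, a membrane protease, was higher by the adjusted p alone (0.91, and called at 1.02 without EGFP- replicate 2), and *Thbs1* (0.12), *Bmp1* (0.17) and *Itgb1* (−0.09, the integrin β1 chain) did not pass. The counts of *Itgav* were 104, 112 and 117 tags against 315, 196 and 183 tags, so that EGFP+ replicate 1 stood highest, as for *Tgfb1*, and without that library *Itgav* was not called (0.90). None of this list was called lower, also by DESeq2, edgeR's exact test or limma voom, and 4 were higher and 0 lower at an unadjusted p under 0.05. The list's median log2 fold change was 0.40, beside −0.01 over all tested genes.

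Of the 3 tested proteoglycans that bind TGF-β, *Aspn* (asporin) was called lower (log2 fold change −2.18, with 233, 265 and 358 tags against 33, 60 and 76), and *Dcn* (decorin) was higher by the adjusted p alone (0.67). *Bgn* (biglycan) did not pass (0.41), and it was the list's median. Of the 6 tested matrix anchors of the latent complex, 0 were called by edgeR's quasi-likelihood test, DESeq2, edgeR's exact test or limma voom, beside 3.44% called higher and 6.37% called lower over all tested genes, shares at which a list this short can hold no called gene. At an unadjusted p under 0.05, 2 were higher and 1 was lower (12.2% and 14.5% over all tested genes), and the median was −0.05. *Emilin1*, an elastic fibre glycoprotein, was higher by the adjusted p alone (0.73), and *Fn1* (fibronectin, 0.06), *Fbn1* (fibrillin-1, −0.17) and *Efemp2* (0.44) did not pass. Of the 9 tested receptor modulators, also a short list, 0 were called by the same 4 tests, with 1 higher and 1 lower at an unadjusted p under 0.05 and a median of −0.30. *Dab2*, an endocytic adaptor, was higher by the adjusted p alone (0.61), and the coreceptors *Nrp1* (−0.30) and *Nrp2* (−0.35) and *Cav1* (−0.67) did not pass. Single libraries mattered here too, since *Cav1* was called lower without EGFP+ replicate 1 (−1.01), *Cd109* without EGFP+ replicate 3 (−1.48), and the anchor gene *Adamtsl2* without EGFP- replicate 3 (−1.34).

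Of the 17 tested genes of intracellular signalling and feedback, 0 were called by these 4 tests, beside 3.44% called higher and 6.37% called lower over all tested genes. At an unadjusted p under 0.05, 2 were higher and 0 lower, beside 12.2% and 14.5% over all tested genes, and the median was 0.08. The 2 were *Pmepa1*, a feedback inhibitor that TGF-β itself induces (log2 fold change 0.93), and *Tgif1*, a SMAD corepressor (0.74), both higher by the adjusted p alone. *Pmepa1* had 139, 173 and 200 tags in the EGFP- libraries and 283, 242 and 349 tags in the EGFP+ libraries, without overlap, and was called at 1.05 without EGFP+ replicate 2. The feedback genes *Skil* (0.18) and *Smad7* (0.25) and the phosphatase gene *Ppm1a* (0.28) did not pass.

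Genes known as TGF-β targets in fibroblasts went both ways, where 3.44% of all tested genes were called higher and 6.37% lower. Of 13 tested, 3 were called higher, namely *Tnc* (log2 fold change 2.23), *Lox* (1.05) and *Col3a1* (1.04), which encode a matricellular protein, a collagen crosslinker and a fibrillar collagen. The 4 called lower were *Acta2* (−3.80) and *Tagln* (−3.62), which encode contractile proteins and also stand in the smooth muscle list, the cell cycle inhibitor *Cdkn1a* (−1.26) and the transcription factor *Junb* (−1.01). The calls of *Lox*, *Col3a1* and *Junb* lay close to the fold threshold and were kept in 11, 13 and 11 of the 15 alternatives that used both thresholds. *Lox* was not called without EGFP- replicate 2 or 3, without EGFP+ replicate 1, or with library totals (0.80 to 1.40 over the alternatives), and *Col3a1* not without EGFP- replicate 1 or with library totals (0.85 to 1.25). *Junb* was not called without EGFP- replicate 2, without EGFP+ replicate 1 or 3, or without a filter on low counts (−1.09 to −0.94). *Postn*, *Tgfbi* and *Ctgf* were lower by the adjusted p alone (−0.85, −0.77 and −0.68), and *Col1a2* (0.42) and *Col1a1* (0.35) did not pass. The median of the list was −0.68, beside −0.01 over all tested genes.

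The genes most like a called gene across the 6 libraries were sought by the Pearson correlation of log2 CPM among the 5063 genes that averaged 30 tags or more, as a description only, since 2 fractions of 3 libraries give high values easily. For *Tgfb1* they included *Gsto1* (0.998) and *Gm34746* (0.995), and for *Tgfb3* *Wdfy3* (0.997), *Dstn* (0.993) and *Osr1* (0.993). For *Ltbp1* they were the pericyte marker *Notch3* (0.996), *Carhsp1* (0.994) and *Rps4x* (0.994). With a smaller prior count of 0.5 on the log scale *Notch3* was no longer among the 3 closest to *Ltbp1*, and the genes named for *Tgfb1* and *Tgfb3* were the same.

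In the mouse genome (GRCm38), *Tgfb1* lies on chr7:25687002-25705077 (plus strand) and *Ltbp4* on the same chromosome at chr7:27305136-27337692 (minus strand). *Tgfb3* is on chr12:86056745-86079041 (minus strand), and overlaps *Ttll5*, which is transcribed from the opposite strand. The tags had been mapped to transcripts in 1 orientation, which keeps such partners apart. *Ltbp3* is on chr19:5740904-5758532 (plus strand). *Tgfbr1* covers chr4:47353222-47414931 (plus strand), and *Ltbp1*, the longest of the 10 genes at 386.9 kb, covers chr17:75005568-75392512 (plus strand) and has a pair of annotated starts far apart.

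Since the tags come from transcript starts, the 250 bases before the annotated starts of the called genes *Tgfb1* and *Ltbp1* are shown, from RefSeq (GRCm38.p6). Promoter sequences of this source were at hand for 8 of the 10 genes, with 12 windows in all, and not for *Tgfb3* and *Tgfbr3*. The windows are chr7:25686752-25687001 for *Tgfb1*, chr17:75005279-75005528 for the upstream start of *Ltbp1* and chr17:75178531-75178780 for its downstream start, all on the plus strand and 5′ to 3′. The tag counts are per gene and do not separate the starts of *Ltbp1*. Capitals mark matches on either strand to the AP-1 motif TGANTCA, the cAMP response element (CRE) TGACGTCA, the TATA box motif TATAAA, the GC box motif GGGCGG and the CCAAT box. The SMAD element GTCTAGAC and the shorter SMAD motif CAGACA were also searched on both strands and are not in capitals. These motifs were chosen after the results were known, and matches of one motif could overlap those of another.
Tgfb1: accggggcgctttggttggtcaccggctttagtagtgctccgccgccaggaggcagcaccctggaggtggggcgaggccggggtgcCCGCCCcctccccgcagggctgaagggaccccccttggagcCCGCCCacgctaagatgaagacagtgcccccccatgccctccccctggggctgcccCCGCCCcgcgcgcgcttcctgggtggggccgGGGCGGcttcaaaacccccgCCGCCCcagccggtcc
Ltbp1 upstream start: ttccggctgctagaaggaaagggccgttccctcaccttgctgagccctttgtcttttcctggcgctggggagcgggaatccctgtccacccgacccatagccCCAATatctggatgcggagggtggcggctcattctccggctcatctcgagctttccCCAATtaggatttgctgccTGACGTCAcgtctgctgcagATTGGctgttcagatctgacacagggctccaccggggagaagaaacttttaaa
Ltbp1 downstream start: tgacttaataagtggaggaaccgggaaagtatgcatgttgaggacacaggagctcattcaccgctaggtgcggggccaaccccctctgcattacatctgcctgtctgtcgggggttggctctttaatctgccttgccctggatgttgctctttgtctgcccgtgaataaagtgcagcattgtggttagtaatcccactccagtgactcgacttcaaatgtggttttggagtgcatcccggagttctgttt

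The *Tgfb1* window is rich in G and C (75.2%, where the median of 32851 promoter windows of this length was 52.4%) and held 5 GC boxes, a motif present in 32.7% of all windows, and no match to the other motifs. The upstream window of *Ltbp1* held 1 CRE, found in 1.55% of all windows, and 3 CCAAT matches, found in 33.8%. The downstream window of *Ltbp1* held 2 matches to the SMAD motif CAGACA, found in 17.1% of all windows, and none to the other motifs. TGANTCA, present in 6.75% of all windows, TATAAA, present in 12.4%, and the SMAD element, present in 0.167%, were absent from these 3 windows. A match says only that these letters occur in the window.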

How the data were processed

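RNA of EGFP+ and EGFP- cells was sequenced by 5′Tag-seq in 3 libraries each, which the labels number 1 to 3 and the methods assign to 3 mice. Reads were trimmed (cutadapt 1.18) and placed on mm10 RefSeq transcripts in 1 orientation (Bowtie2 2.2.5) by the authors, who deposited raw tag counts for each gene symbol. Treatment of PCR duplicates and of tags with several matches is not given in the sources used here. Of 20327 symbols, 1 that names no gene, with at most 1 tag in a library, was left out.

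In R 4.3.3, a gene was tested if 3 or more of the 6 libraries held 10 or more of its tags, and all were fitted together in edgeR 4.0.16 (TMM scaling, glmQLFit, glmQLFTest, Benjamini-Hochberg adjustment over all 9334 genes), with no block. The study's methods used edgeR through TCC with the same thresholds, and whether a block was used is not given in the sources used here. Normalised CPM are tags per 1000000 after TMM, and log2 fold changes are EGFP+ over EGFP-. A called gene passes 0.05 for the adjusted p and 2 for the fold change. Only the genes of interest are printed. Alternatives were RLE, library totals, iterative TMM (3 rounds), DESeq2 1.42.0, edgeR's exact test, limma 3.58.1 (voom), the replicate number as a block, other filters, the adjusted p alone and leaving out each library.

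The members and the gene lists were chosen with earlier results of these data known. Named are all members, *Il11*, of each pathway or marker list every called gene and up to 4 others with the most tags, and the 3 genes most correlated with each called member; other genes that passed the adjusted p alone or were called when 1 library was left out, and *Kit*, *S100b*, *Sox10*, *Pecam1* and *Epcam* at or near 0 tags, were named after their values were seen. Some genes that this rule takes are not reported here. Mesothelial (3 genes, at most 18 summed tags) markers and the erythroid markers had no tested gene.

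Replicate numbers were checked for pairing: deviations of same-numbered libraries from their group means correlated at 0.231, 0.186 and 0.268 over 5063 genes, each above 0.1, so the numbers were taken to pair the libraries. Libraries of a group differed by more than sampling noise (chi-square per degree of freedom 2.56 to 6.11). The fit was tested on simulated counts with known log2 changes of 1.5 and 2.5 in size. It recovered 95 of 100 and 100 of 100 changed genes, and called 4 unchanged genes, with 9305 genes tested. The simulation gave all genes the same dispersion, had no pairing, and held no change as small as those of *Tgfb1*, *Tgfb3* and *Ltbp1*. It therefore does not show how reliable these 3 calls are. Overlaps and shared stretches came from GENCODE vM21, promoters from RefSeq.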

Additional observations from a re-analysis of the deposited data

How the results depend on the processing

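Across 16 alternatives per gene, *Tgfb3*, *Ltbp1*, *Tgfbr3* and *Ltbp3* kept their direction and their side of the thresholds in each. *Tgfbr1* and *Ltbp4* passed when the fold threshold was dropped, and *Tgfb1* and *Ltbp4* changed sides when single libraries were left out, as given with their values. Genes that did not pass the test changed sign in places: *Tgfb2* was at −0.00222 on the log2 scale when scaled by library totals and ran from −0.10 to 0.33 over the libraries left out in turn, and *Tgfbr2* was at −0.0524 with library totals, at −0.00831 when 10 tags were asked of all 6 libraries, and from −0.18 to 0.23 over the libraries left out. The cause of these turns was not tested. The number of genes called higher was 2 with the fold threshold dropped and ran from 0 to 1 over the libraries left out, and the number called lower was 3 with the fold threshold dropped and ran from 2 to 3. Without the filter on low counts, *Ltbp2* entered the fit and the number of called genes stayed at 1 higher and 2 lower.

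With the replicate number as a block, which uses the pairing of the libraries, *Tgfb1* was at 1.15, *Tgfb3* at −1.35, *Ltbp1* at −1.23, *Tgfbr1* at 0.88 and *Ltbp4* at −0.90 on the log2 scale, and 1 gene was called higher and 2 lower. The block changed no call of these genes. Depth limits scarce genes: *Tgfb1* had 15 to 52 tags per library and *Ltbp2* 0 to 7. Purity of the fractions and the cells behind each transcript were not measured here, and protein and ligand activation are outside tag counts.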
